A study of Mus musculus with 14 samples.

Results

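Wild-type mouse B cells were isolated from the spleen and cultured for 96 h with lipopolysaccharide (LPS) and interleukin-4 (IL-4), and their messenger RNA was sequenced. The members described here are the 4 libraries labelled wild type (replicates 1 to 4), chosen by genotype alone, out of 14 libraries in the series; the other libraries, from PU.1 155-/155- mice, with a mutated miR-155 site in PU.1, and from miR-155-/- mice, were not used. The B cells were purified by depleting all other cells with a magnetic isolation kit. They were grown in RPMI-1640 with fetal calf serum, 2-mercaptoethanol and antibiotics, and all 4 cultures received LPS at 5 µg/ml together with IL-4 at 10 ng/ml for 4 days. The series describes its replicates as biological. The sources used here give no strain, age or sex of the mice, and neither untreated cells nor cells given LPS or IL-4 alone were analysed, so that the levels below are those of the combined treatment with no baseline. They are also averages over whole cultures, in which fewer cells of a type and less RNA per cell cannot be told apart.

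LPS is a component of the outer membrane of Gram-negative bacteria. Mouse B cells sense it through TLR4 with its partner MD-2 and through the related receptor RP105, which leads to activation of NF-kB, to division and, in part of the cells, to antibody secretion. IL-4 binds a receptor built of the IL-4 receptor alpha chain and the common gamma chain, and the kinases JAK1 and JAK3 then activate the transcription factor STAT6. Together the signals direct switching of the antibody heavy chain to IgG1 and IgE, and IL-4 is known to raise MHC class II and CD23 on B cells. Differentiation to antibody-secreting cells runs through Irf4, Prdm1 (BLIMP-1) and Xbp1, while Pax5, Bach2 and Bcl6 hold the B cell state.

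Levels are in RPKM, reads per kilobase of gene model and per 1000000 mapped reads, which allows levels of different genes to be compared per length. A gene was called expressed when it reached 1 RPKM in every one of the 4 libraries. A mean is given with the standard deviation (SD) over the 4 libraries, n = 4 throughout, CV is the SD as a percent of the mean, and rank 1 is the highest mean of the 22232 genes. No test between groups was run, since a single group was described. The estimated depth was 35.3 to 44.0 times 1000000 reads a library, at which 1 RPKM on a gene model of 2 kb is 70.6 to 88.1 reads. That many reads carry a counting error of 10.7 to 11.9%, so differences of that size at low levels are not detectable. No 2 libraries held identical columns. The 4 profiles were close to each other: for the median expressed gene a pair of libraries differed by 1.05-fold (replicates 2 and 3) to 1.11-fold (replicates 1 and 4).

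Of the 22232 genes, 9029 (40.6%) were expressed, and 6948 were listed at 0 in all 4 libraries. Expressed genes had a median level of 7.82 RPKM, with quartiles of 3.78 and 16.9 RPKM. Means of 10 RPKM or more were reached by 3689 genes, 100 RPKM by 241 and 1000 RPKM by 20. The RNA was concentrated in few genes: the 100 highest made up 34.1 ± 0.321% of the summed RPKM of a library and the 10 highest 11.2 ± 0.199%. The highest single gene was Cd74, the invariant chain that guides MHC class II molecules, with 3336, 3820.3, 3774 and 3832 RPKM in replicates 1 to 4 (mean 3690.5 ± 237, SD, n = 4; for the genes below the 4 values are given in the same order, followed by mean ± SD). Its level was lowest in replicate 1, and the other 3 libraries lay within 3774 to 3832 RPKM. Behind it stood the cytochrome oxidase subunits mt-Co1 (3393 ± 87.2 RPKM), mt-Co3 (2729 ± 63.3 RPKM) and mt-Co2 (2015 ± 47.4 RPKM), all encoded in the mitochondrial genome, and the translation elongation factor Eef1a1 (3132 ± 68.1 RPKM). The ribosomal protein genes Rpl32 (1949.8 ± 116 RPKM) and Rpl4 (1556 ± 58.3 RPKM), the elongation factor Eef2 (1488 ± 147 RPKM), the MHC class I light chain B2m (1415 ± 49.4 RPKM) and the predicted gene Gm10076 (1659 ± 67.7 RPKM) completed the 10 highest. Ranks 11 to 25 included 3 MHC class II genes (H2-Aa, H2-Eb1 and H2-Ab1), the ribosomal protein genes Rpl8, Rplp0, Rps15, Rplp1 and Rps21, the mitochondrial mt-Cytb and mt-Nd1, beta-actin (Actb), Gnb2l1 (the ribosomal scaffold RACK1) and Lars2.

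By class, the 83 cytosolic ribosomal protein genes took 12.3 ± 0.429% of the summed RPKM, the 13 mitochondrially encoded transcripts 6.50 ± 0.355% and the 42 genes of antigen presentation 5.90 ± 0.155%. Translation factors held 3.96 ± 0.0374%. The chaperones and translocation genes of the endoplasmic reticulum together with the plasma cell genes held 2.15 ± 0.0353%, and B cell surface receptors and transcription factors 2.13 ± 0.0455%. Each gene was counted in a single class. Shared genes such as Calr were counted under antigen presentation and are missing from the share of the endoplasmic reticulum. Replication and mitosis genes held 0.985 ± 0.0347% and glycolysis genes 0.834 ± 0.0546%. Replicate 1 had the highest mitochondrially encoded share, 7.002%, and the lowest ribosomal protein share, 11.7%, while the other 3 lay at 6.17 to 6.44% and 12.3 to 12.7%. A few genes known to be abundant were listed very low: Gapdh at 0.982 ± 0.141 RPKM, Ppia at 1.42 ± 0.132 RPKM, Rps27 at 1.01 ± 0.201 RPKM, Rps6 at 1.52 ± 0.407 RPKM and mt-Nd4l at 1.07 ± 0.249 RPKM. Gapdh, Ppia and the ribosomal protein genes have many near-identical copies in the mouse genome and mt-Nd4l overlaps its neighbour, so these levels, and those of any multicopy or overlapping gene, are uncertain where the counting shared or dropped such reads; the counting rule is not stated. Lars2, the mitochondrial leucyl-tRNA synthetase, stood at 912 ± 92.5 RPKM, whereas the other 16 mitochondrial tRNA synthetases lay between 1.69 and 8.95 RPKM with a median of 4.12 RPKM; that list was drawn up after the level of Lars2 was seen, and the reason for its level was not tested.

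**Figure D1:**
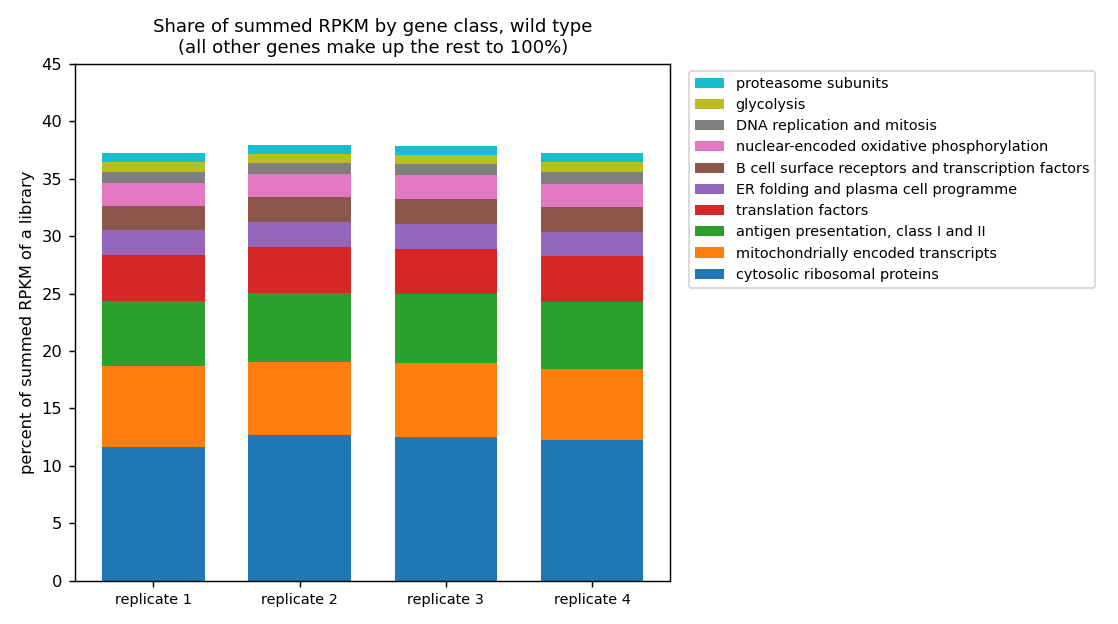
Share of the summed RPKM of each wild-type library (percent, vertical axis) taken by 10 classes of genes, stacked, for replicates 1 to 4. Ribosomal protein genes are the largest class in each library at 11.7 to 12.7%, and replicate 1 has the largest mitochondrially encoded share at 7.002%.

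The labelled cell type was checked against markers of B cells and of 9 other kinds of cells a spleen preparation could hold. All 12 B cell markers were expressed, and their summed level was 2056 to 2403 RPKM. Of 10 natural killer cell markers, 12 neutrophil markers and 10 mast cell and basophil markers none was expressed, and the sums reached at most 0.854, 0.169 and 0.140 RPKM. Of 16 T cell markers 2 were expressed, Ctla4 at 6.18 ± 0.681 RPKM and Tcf7 at 1.66 ± 0.189 RPKM, while the CD3 chain Cd3e was at 0.00395 ± 0.00789 RPKM, Cd4 at 0.00641 ± 0.00801 RPKM and Trat1 at 0. Of 16 macrophage markers only Cd68 was expressed (6.80 ± 0.475 RPKM), with Csf1r at 0.110 ± 0.0448 RPKM and Lyz1, C1qa, Mertk, Cd163 and Vcam1 at 0. The transferrin receptor Tfrc (17.2 ± 1.42 RPKM), which dividing cells of many types carry, was the only expressed marker of 12 on the erythroid list. Pecam1 (6.89 ± 0.341 RPKM) was the only one of 12 on the stromal and endothelial list.

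Among 8 platelet markers the integrin chain Itgb3 stood at 39.8 ± 2.56 RPKM, with Itga2b, its partner on platelets, at 0.190 ± 0.0174 RPKM and Itgav, its partner elsewhere, at 3.25 ± 0.291 RPKM. Of 12 dendritic cell markers 6 were expressed: Bst2 (74.4 ± 16.6 RPKM), Ly6d (45.6 ± 4.90 RPKM), the cytokine receptor Flt3 (15.8 ± 1.67 RPKM), Batf3 (12.4 ± 1.48 RPKM), Tcf4 (11.3 ± 0.449 RPKM) and Zbtb46 (2.34 ± 0.151 RPKM). On the same list Itgax (0.00315 ± 0.00368 RPKM), Clec9a (0.00212 ± 0.00424 RPKM) and Xcr1 (0.0333 ± 0.0129 RPKM) were near 0 and Siglech was at 0. The summed dendritic cell markers ran from 129.97 RPKM in replicate 1 to 186 RPKM in replicate 3. Bst2 and Tcf4 are also expressed by B lineage cells, and Ly6d marks early B lineage cells. Which cells held the RNA of the expressed dendritic cell markers, among them Flt3, Batf3 and Zbtb46, was not tested.

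All 30 transcription factors of the B cell list were expressed, with a median of 16.3 RPKM against 7.82 RPKM over all expressed genes. The highest was the coactivator Pou2af1 (OBF-1), at 320.01, 345, 379.8 and 356 RPKM (350.4 ± 24.8). Its 4 values exceeded every value of Irf8, next in order, which was at 105, 129, 141 and 122 RPKM (124 ± 15.1). The ETS factor Spib followed Mef2c (85.01 ± 3.34 RPKM) and was at 61.1, 72.7, 78.6 and 70.2 RPKM (70.6 ± 7.25). The other ETS factor of that pair, PU.1 (named Sfpi1 in the table), was at 9.73, 12.5, 13.2 and 12.6 RPKM (11.99 ± 1.54), and every value lay below those of Spib. In all 3 of Irf8, Spib and Sfpi1 replicate 1 was lowest and replicate 3 highest. Pax5, which maintains B cell identity, was at 32.3, 37.3, 37.4 and 36.3 RPKM (35.8 ± 2.42). Ebf1, which acts with Pax5, was at 9.96, 9.65, 10.3 and 10.5 RPKM (10.1 ± 0.393), below every value of Pax5. The Ikaros family members Ikzf3 (65.1 ± 2.54 RPKM) and Ikzf1 (44.8 ± 2.16 RPKM) and the E protein Tcf3 (38.04 ± 7.08 RPKM) were also above 30 RPKM. Pou2f2 (OCT-2), the partner of Pou2af1, was the only factor of this list with a CV above 30% (30.7%), at 12.1, 21.4, 24.9 and 15.8 RPKM (18.6 ± 5.69). At the lower end were the repressor Bach2, at 4.49, 4.59, 4.86 and 4.84 RPKM (4.70 ± 0.182), Id2 (2.22 ± 0.365 RPKM) and Lef1 (2.13 ± 0.248 RPKM). Bcl6, the repressor of germinal centre cells, was at 7.82, 8.58, 9.29 and 8.53 RPKM (8.56 ± 0.599).

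Genes of the plasma cell programme were spread over a wide range, and 26 of 30 were expressed, with a median of 14.7 RPKM. Irf4 was at 35.1, 38.2, 38.3 and 39.8 RPKM (37.9 ± 1.98), overlapping the values of Pax5, and Irf8 was 3.27 ± 0.314 times as high. Prdm1, the repressor that drives terminal differentiation, was at 5.59, 5.83, 6.25 and 5.77 RPKM (5.86 ± 0.280). Pax5 was 6.11 ± 0.280 times as high as Prdm1, with ratios between 5.77 and 6.39 in the single libraries, and Bach2 stood at 0.802 ± 0.0267 of the Prdm1 level. Xbp1, which expands the secretory apparatus, was at 125, 137, 141 and 134 RPKM (134 ± 6.78). The J chain gene, Igj, which links IgM pentamers, was at 250.5, 318, 309 and 249 RPKM (282 ± 36.9), with replicates 2 and 3 above replicates 1 and 4 by a gap wider than the spread within each pair. The list was headed by 2010001M09Rik (pERp1, a chaperone of antibody assembly), at 788 ± 100 RPKM, and by Ly6a (Sca-1), at 446 ± 31.8 RPKM. Syndecan-1, Sdc1, the surface protein by which plasma cells are sorted, was at 1.26, 1.57, 1.43 and 1.45 RPKM (1.43 ± 0.129). Tnfrsf17 (BCMA), a survival receptor of plasma cells, was below the expression floor at 0.140 ± 0.0537 RPKM, as were Cd28 (0.162 ± 0.0367 RPKM) and Chst1 (0.173 ± 0.0406 RPKM), and Ly6k averaged 2.07 ± 0.941 RPKM without reaching the floor in every library. The cultures held Xbp1 and J chain RNA above 100 RPKM beside Pax5 at 35.8 RPKM and Sdc1 at 1.43 RPKM; whether these came from the same cells cannot be read from bulk RNA.

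**Figure D2:**
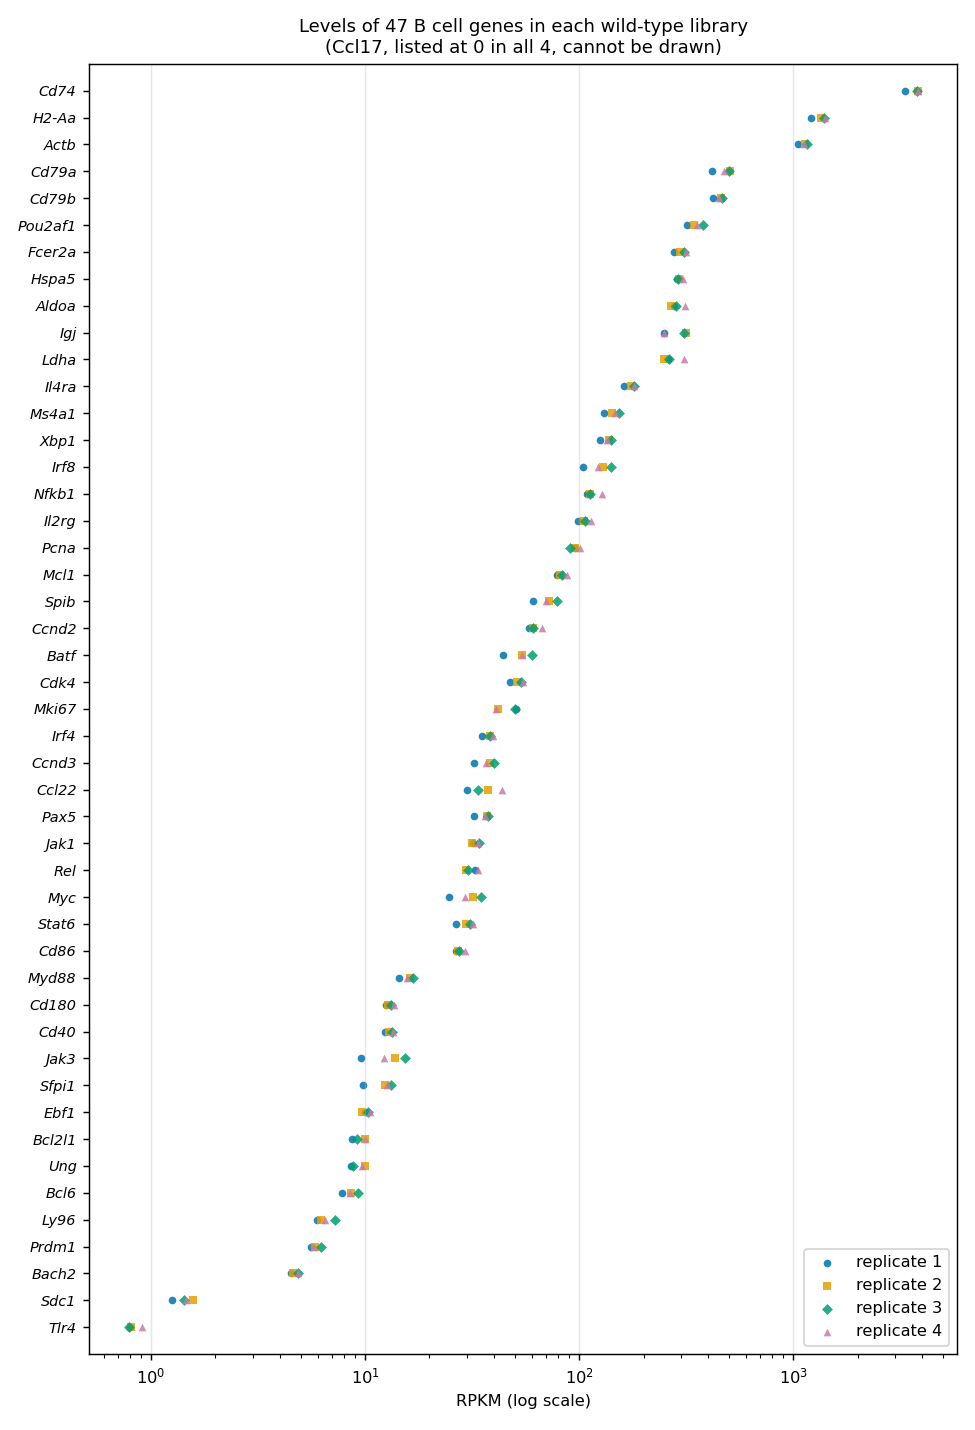
RPKM (horizontal axis, log scale) of 47 genes of B cell biology, one point for each of replicates 1 to 4, ordered by mean from Cd74 (3690.5 RPKM) down to Tlr4 (0.825 RPKM). Points of a gene lie close together next to the range between genes, and replicate 1 is often the leftmost.

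Of 32 B cell surface receptors 28 were expressed. The signalling chains of the B cell receptor were at 417, 506, 503 and 477 RPKM (476 ± 41.4) for Cd79a and 421, 462, 466 and 450.01 RPKM (449.7 ± 20.4) for Cd79b. Their ratio was 1.06 ± 0.0464, and their values overlapped. Ms4a1 (CD20) was at 131, 143, 153 and 148 RPKM (144 ± 9.49). The small glycoprotein gene Cd52 was the highest of the list (643 ± 47.3 RPKM), and the inhibitory lectin Cd22 was at 181 ± 11.8 RPKM. The receptor for the survival factor BAFF, Tnfrsf13c, was at 77.6 ± 6.73 RPKM, and TACI, Tnfrsf13b, was below all its values at 55.8 ± 4.07 RPKM. Fcgr2b, the inhibitory Fc receptor, was at 20.6 ± 1.70 RPKM. The complement receptor Cr2, high on resting marginal zone B cells, was below the floor (0.611 ± 0.0379 RPKM), as were Cd5 (0.231 ± 0.0869 RPKM) and Lair1 (0.0122 ± 0.00893 RPKM), and Cd1d1 averaged 1.08 ± 0.184 RPKM with values on both sides of the floor. Heavy chain constant regions were covered by a single gene, Ighg2c, at 3.38 ± 0.931 RPKM; the lambda constant regions Iglc2 and Iglc3 were at 230.4 ± 24.7 RPKM and 163 ± 7.34 RPKM. Those of IgM, IgD, IgE, IgA, the other IgG classes and kappa were not analysed here, so that the outcome of switching cannot be read.

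Inside the cell, all 29 B cell receptor signalling genes analysed were expressed, with means of 2.17 to 106 RPKM and a median of 23.6 RPKM. The adaptors Grb2 (106 ± 6.67 RPKM) and Blnk (60.6 ± 3.34 RPKM), the phosphatase Ptpn6 (SHP-1, 85.2 ± 5.17 RPKM) and the phospholipase Plcg2 (51.7 ± 3.26 RPKM) were in the upper part. The kinases Btk (25.6 ± 0.999 RPKM), Lyn (19.4 ± 0.731 RPKM) and Blk (18.4 ± 1.65 RPKM) followed in the middle, and Lyn and Blk overlapped. The calcium-dependent factor Nfatc2 (2.17 ± 0.170 RPKM) was lowest. Syk was not analysed here.

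Of 34 genes of LPS and Toll-like receptor sensing 26 were expressed. The receptor for LPS itself was among the low ones: Tlr4 was at 0.800, 0.806, 0.786 and 0.908 RPKM (0.825 ± 0.0561), under the floor of 1 RPKM in all 4 libraries. Its partner MD-2, Ly96, was at 5.94, 6.24, 7.22 and 6.53 RPKM (6.48 ± 0.550), and the LPS coreceptor of myeloid cells, Cd14, was at 0.0233 ± 0.0376 RPKM. RP105, Cd180, was at 12.5, 12.8, 13.2 and 13.6 RPKM (13.04 ± 0.479), which was 15.8 ± 0.730 times the level of Tlr4, and its partner MD-1, Ly86, stood at 93.5 ± 3.67 RPKM. Tlr7, the receptor for single-stranded RNA, was the highest of the Toll-like receptors at 33.96 ± 1.36 RPKM, 41.3 ± 3.18 times Tlr4. Behind it came Tlr1 (6.88 ± 0.265 RPKM) and Tlr9 (6.14 ± 0.586 RPKM), and Tlr5 and Tlr11 were at 0. Unc93b1, which carries the endosomal receptors to their compartment, was the highest gene of the whole list, at 103 ± 15.4 RPKM, and its values overlapped those of Ly86. The adaptor Myd88 was at 14.5, 16.2, 16.8 and 15.7 RPKM (15.8 ± 0.993), and the adaptors of the other branch, Ticam1 and Ticam2, were at 11.8 ± 0.831 RPKM and 23.2 ± 1.78 RPKM. Receptor protein was not measured here, and the level of Tlr4 before stimulation was not measured.

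Downstream, 19 of 20 genes on a list of NF-kB subunits, kinases, inhibitors and related genes were expressed, with a median of 12.2 RPKM. The precursor of p50, Nfkb1, was highest at 108, 112, 112 and 128 RPKM (115 ± 8.99), and each value exceeded all those of Nfkb2 (54.998 ± 6.91 RPKM), the precursor of p52. Rel (c-REL) was at 32.5, 29.7, 30.3 and 33.7 RPKM (31.5 ± 1.86), above every value of Rela (21.03 ± 1.47 RPKM) and of Relb (9.42 ± 0.949 RPKM). The ratio of Nfkb1 to Rela was 5.49 ± 0.457. Among the inhibitors the deubiquitinase Tnfaip3 (A20) was at 38.05 ± 2.21 RPKM and Nfkbia (IkB alpha) at 33.7 ± 4.13 RPKM, with overlapping values. Of the other IkB family genes, Nfkbie (17.8 ± 2.41 RPKM) and Bcl3 (17.7 ± 2.79 RPKM) were next. Nfkbiz (3.10 ± 0.0374 RPKM) and Nfkbid (2.10 ± 0.294 RPKM) were the lowest of the expressed genes on the list. Tnfaip2 was at 0.00802 ± 0.00634 RPKM.

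The IL-4 receptor genes were well above the median of expressed genes. Il4ra was at 162, 174, 179.99 and 179.9 RPKM (174 ± 8.51), rank 124, and Il2rg, the common gamma chain, at 98.5, 105, 107 and 114 RPKM (106 ± 6.30). Their ratio was 1.64 ± 0.0429, the values of Il4ra exceeding all those of Il2rg, while Il13ra1, the chain of the alternative receptor in other cell types, was under the floor at 0.269 ± 0.0383 RPKM. Jak1 was at 31.9, 31.7, 34.1 and 33.8 RPKM (32.9 ± 1.24) and Jak3 at 9.59, 13.8, 15.3 and 12.3 RPKM (12.8 ± 2.46); each Jak3 value was below each Jak1 value. Jak3 had the widest spread of this pathway, with a CV of 19.3%, lowest in replicate 1 and highest in replicate 3. Jak2, by contrast, was in the values as deposited among the 10 expressed genes of smallest spread at 5 RPKM or more, with 9.52 ± 0.0800 RPKM. Stat6 was at 26.7, 29.8, 30.99 and 31.8 RPKM (29.8 ± 2.24). Among the feedback inhibitors, Cish (19.7 ± 1.72 RPKM) was above all values of Socs2 (15.7 ± 0.610 RPKM), which was above all those of Socs1 (9.16 ± 1.41 RPKM), and Socs3 was at 4.69 ± 0.480 RPKM.

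Of 25 genes known to respond to IL-4 in B cells or in other cells, 17 were expressed. Fcer2a, the low-affinity IgE receptor CD23, was at 276, 297, 308 and 314 RPKM (299 ± 16.7), rank 76 of all genes. Il4i1, a secreted amino acid oxidase, was at 195 ± 39.1 RPKM, and Nfil3 at 92.1 ± 6.57 RPKM. The chemokine Ccl22, which attracts cells bearing CCR4, was at 29.8, 37.4, 33.6 and 43.7 RPKM (36.1 ± 5.92), with a CV of 16.4%. Its neighbour Ccl17, which binds the same receptor, was listed at 0 in all 4 libraries (0, 0, 0 and 0 RPKM). The macrophage genes Arg1 (0.0129 ± 0.0166 RPKM) and Mrc1 (0.0273 ± 0.0130 RPKM) were near 0, and Retnla and Chi3l3 were at 0. Gata3 was at 0.00206 ± 0.00412 RPKM.

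Class switching genes were nearly all expressed, 36 of 38. The list median was 8.0003 RPKM, and Parp1, which senses DNA breaks, was among the highest members at 76.6 ± 4.997 RPKM. Batf, a factor needed for switching, was at 44.3, 54.05, 60.2 and 54.1 RPKM (53.2 ± 6.58). Ung, the glycosylase that removes uracil from DNA, was at 8.58, 10.04, 8.75 and 9.64 RPKM (9.25 ± 0.698), below all values of Batf. The mismatch repair gene Msh6 was at 21.9 ± 0.948 RPKM. In end joining Xrcc6 (Ku70) was at 8.48 ± 0.268 RPKM and Xrcc5 (Ku80) at 4.26 ± 0.416 RPKM, and the ligase Lig4 was under the floor at 0.834 ± 0.0762 RPKM. The damage response kinase Atm was at 11.7 ± 0.832 RPKM and Trp53bp1 (53BP1) at 4.86 ± 0.0370 RPKM.

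Antigen presentation was the best represented of the immune functions. All 24 class II genes analysed were expressed, with a median of 37.2 RPKM. Beyond Cd74, H2-Aa was at 1210.3, 1344, 1388 and 1406 RPKM (1337 ± 88.4), each value above all those of H2-Eb1 (958 ± 79.2 RPKM) and H2-Ab1 (936 ± 78.4 RPKM), which overlapped each other. Cd74 was 2.76 ± 0.0572 times as high as H2-Aa. The peptide editor subunits H2-DMb2 and H2-DMa were at 335 ± 17.2 RPKM and 239.97 ± 20.01 RPKM, and those of its inhibitor, H2-Ob and H2-Oa, at 81.4 ± 4.78 RPKM and 55.4 ± 6.87 RPKM. Ciita, the coactivator of class II transcription, was at 34.2 ± 2.51 RPKM, and the factors of its DNA-bound complex were lower, with Rfx5 at 10.98 ± 0.904 RPKM, Nfya at 17.1 ± 1.05 RPKM and Rfxap at 2.84 ± 0.364 RPKM. Of the proteases, cathepsin S, Ctss, was at 122 ± 7.99 RPKM, and cathepsin L, Ctsl, was lowest of the list at 1.46 ± 0.0648 RPKM. For class I all 18 genes were expressed, with a median of 110.1 RPKM, and their median CV of 10.1% was above the 6.63% of all expressed genes. Their transcripts had a median GC content of 54.3%, against 49.4% for all expressed genes, and its part in this spread was not tested. B2m was highest (1415 ± 49.4 RPKM), followed by the heavy chains H2-K1 (766 ± 88.9 RPKM) and H2-D1 (350.4 ± 40.96 RPKM). The peptide transporter subunits were at 105 ± 11.2 RPKM for Tap1 and 49.8 ± 7.59 RPKM for Tap2, and the immunoproteasome subunits at 131 ± 9.49 RPKM for Psmb8 and 75.6 ± 6.001 RPKM for Psmb9.

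Promoter sequences of 5 of the genes above are shown: class II (H2-Aa and H2-Eb1), class I (B2m), the NF-kB inhibitor Nfkbia and the IL-4 response gene Fcer2a. Each run is the 250 bases before the gene's start from RefSeq on build GRCm38.p6, read 5′ to 3′ on the strand of the gene, with the motif match in capitals. The motifs were CTGATTGG (the Y box of class II promoters, bound by NF-Y), GGGA and TTTCC with 1 base between them (a kappaB site) and TTC and GAA with 4 bases between them (the STAT6 type), each searched on both strands; the last equals its own reverse complement, and no match shown overlapped that of another motif. At B2m and Nfkbia the match is on the opposite strand, so the capitals show its reverse complement. They were chosen, with the promoters to print, after 12 patterns had been scanned in 27 of 38 genes of interest that had an entry and the matches had been seen. H2-Ab1 has no entry.
H2-Aa, Y box, chr17:34287824-34288073, minus strand: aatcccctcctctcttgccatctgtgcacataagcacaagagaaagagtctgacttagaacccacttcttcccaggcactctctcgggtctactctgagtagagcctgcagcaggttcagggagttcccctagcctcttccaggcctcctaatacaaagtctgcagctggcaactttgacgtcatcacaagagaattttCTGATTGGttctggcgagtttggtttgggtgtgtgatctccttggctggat
H2-Eb1, Y box, chr17:34305617-34305866, plus strand: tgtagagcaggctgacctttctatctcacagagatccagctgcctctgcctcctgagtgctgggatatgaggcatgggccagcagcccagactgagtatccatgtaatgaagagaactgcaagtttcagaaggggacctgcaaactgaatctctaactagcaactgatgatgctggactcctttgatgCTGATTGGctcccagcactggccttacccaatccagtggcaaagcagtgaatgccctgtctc
B2m, kappaB, chr2:122147437-122147686, plus strand: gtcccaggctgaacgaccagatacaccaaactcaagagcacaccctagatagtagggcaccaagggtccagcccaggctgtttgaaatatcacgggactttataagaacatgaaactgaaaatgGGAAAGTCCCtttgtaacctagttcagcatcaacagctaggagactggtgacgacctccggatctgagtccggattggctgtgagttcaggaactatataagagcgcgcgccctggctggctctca
Nfkbia, kappaB, chr12:55492648-55492897, minus strand: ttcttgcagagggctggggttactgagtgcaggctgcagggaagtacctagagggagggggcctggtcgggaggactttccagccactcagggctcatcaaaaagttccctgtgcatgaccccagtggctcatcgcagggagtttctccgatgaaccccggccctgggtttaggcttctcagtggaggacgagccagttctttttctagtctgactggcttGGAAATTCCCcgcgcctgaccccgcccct
Fcer2a, STAT6 type, the second of 3 listed starts, chr8:3690862-3691111, minus strand: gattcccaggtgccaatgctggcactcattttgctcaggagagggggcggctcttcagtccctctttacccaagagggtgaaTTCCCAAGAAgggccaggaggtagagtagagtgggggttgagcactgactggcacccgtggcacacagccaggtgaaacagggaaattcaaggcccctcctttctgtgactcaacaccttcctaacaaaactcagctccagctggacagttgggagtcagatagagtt

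The Y box letters begin 51 bases before the start of H2-Aa and 62 before that of H2-Eb1. The kappaB match of B2m begins 126 bases before its start and that of Nfkbia 29 bases before. At Fcer2a the match begins 168 bases before its start, and the other 2 listed starts had none. Most members of the same lists had no match. With any listed start counted, the Y box was found in 4 of 19 class II genes with an entry, against 4.43% of all 27025 genes. The kappaB letters were found in 3 of 15 NF-kB genes and 1 of 16 class I genes, against 0.414%, and the STAT6 type in 3 of 18 IL-4 response genes, against 6.76%. Of single promoters, 3.83% of 32851 hold the Y box, 0.356% the kappaB letters and 5.85% the STAT6 type. The 3 IL-4 response genes were Fcer2a, at 299 RPKM, and Ccl17 and Retnla, both at 0, so that a match went with high and with zero levels. A match is a string of letters and not a measured binding site.

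Of 32 costimulatory and activation genes 28 were expressed, with a median of 13.5 RPKM. Cd83, an activation marker of B and dendritic cells, was highest at 201 ± 17.2 RPKM. Cd86, a ligand of CD28 and CTLA-4, was at 26.6, 27.1, 27.3 and 29.4 RPKM (27.6 ± 1.23), while the related Cd80 was at 4.54 ± 0.508 RPKM. Cd40, the receptor for T cell help, was at 12.3, 12.9, 13.4 and 13.4 RPKM (13.03 ± 0.522). The adhesion gene Cd44 was at 68.9 ± 5.02 RPKM, the early activation antigen Cd69 at 32.5 ± 0.942 RPKM, the IL-2 receptor alpha chain Il2ra at 14.8 ± 1.37 RPKM and the death receptor Fas at 14.1 ± 0.212 RPKM. The inhibitory ligands Cd274 (PD-L1) and Pdcd1lg2 (PD-L2) overlapped at 5.96 ± 0.200 RPKM and 6.10 ± 0.359 RPKM. Icosl (0.232 ± 0.0871 RPKM), Cd70 (0.356 ± 0.128 RPKM), Tnfsf4 (0.471 ± 0.0572 RPKM) and Tnfsf8 (0.985 ± 0.255 RPKM) were not expressed.

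Secreted signals were few. Of 37 cytokine genes 11 were expressed, and 6 were listed at 0, among them Il4 itself, Il13 and Ifnb1. Mif led the list at 203 ± 16.8 RPKM. Ebi3, a subunit of IL-27 and IL-35, was at 60.1 ± 7.46 RPKM, while Il27 was at 0.0116 ± 0.0134 RPKM and Il12a at 2.38 ± 0.425 RPKM. Lymphotoxin beta, Ltb, was at 29.1 ± 4.51 RPKM, and Tnf (7.14 ± 0.850 RPKM) and Lta (6.76 ± 0.652 RPKM) overlapped. Il6 was at 3.32 ± 0.299 RPKM, and Il10 averaged 1.37 ± 0.347 RPKM without reaching the floor in every library. Of 32 chemokine genes only Ccl22 and Ccl5 (16.8 ± 4.04 RPKM) were expressed, and 15 were listed at 0. Ccl3 and Ccl4, which B cells make upon receptor stimulation, were at 0.321 ± 0.0724 RPKM and 0.487 ± 0.130 RPKM. Among 29 migration receptors 14 were expressed. Cxcr5, which guides cells into follicles, was at 41.6 ± 2.86 RPKM, overlapping Gpr183 (EBI2) at 34.8 ± 1.99 RPKM, and Ccr7 was at 17.8 ± 1.93 RPKM. The receptor of CCL22, Ccr4, was at 11.6 ± 1.07 RPKM. The lymph exit receptor S1pr1 was at 2.48 ± 0.226 RPKM, below all values of S1pr4 (9.39 ± 2.71 RPKM) and S1pr3 (5.86 ± 0.518 RPKM), and the plasma cell receptor Ccr10 was at 0.221 ± 0.0609 RPKM.

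Interferon-stimulated genes were expressed in 37 of 40 cases, with a median of 19.2 RPKM, although Ifnb1 was at 0. Ifi27l2a led at 369 ± 39.2 RPKM, followed by Bst2 and Gbp2 (69.1 ± 5.78 RPKM). Isg15, a ubiquitin-like modifier, was at 39.3 ± 2.80 RPKM. Genes that in many cells answer interferon most steeply were low, with Ifit1 at 2.31 ± 0.141 RPKM, Rsad2 at 1.28 ± 0.110 RPKM and Ifit3 at 0.419 ± 0.0340 RPKM. On the IRF list, which also holds the IRF2-binding proteins Irf2bp1 and Irf2bp2, 10 of 11 genes were expressed. Behind Irf8, the values of Irf4, Irf5 (32.98 ± 2.42 RPKM) and Irf7 (29.3 ± 3.28 RPKM) overlapped from each to the next, and Irf1 was at 8.75 ± 0.159 RPKM.

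The cultures carried the transcripts of dividing cells. All 46 replication genes and all 43 mitosis genes were expressed, with medians of 16.4 and 17.7 RPKM. Pcna, the sliding clamp of DNA polymerase, was at 95.6, 95.9, 90.98 and 101 RPKM (95.8 ± 3.93), and the helicase subunits ran from 79.7 ± 4.23 RPKM for Mcm3 to 31.3 ± 1.95 RPKM for Mcm2. The proliferation marker Mki67 was at 50.8, 41.8, 49.99 and 40.7 RPKM (45.8 ± 5.32); replicates 1 and 3 were above replicates 2 and 4 with no overlap. Top2a was the highest mitosis gene at 68.2 ± 4.01 RPKM, and Cdk1 was at 20.3 ± 0.985 RPKM. Myc, the growth regulator, was at 24.6, 32.03, 34.9 and 29.3 RPKM (30.2 ± 4.37), lowest in replicate 1 and highest in replicate 3. Among the D cyclins, which start the cycle, Ccnd2 was at 58.5, 60.9, 61.1 and 67.2 RPKM (61.9 ± 3.69) and Ccnd3 at 32.4, 38.4, 40.2 and 36.9 RPKM (36.98 ± 3.34), each Ccnd2 value above all those of Ccnd3, while Ccnd1 was at 0.0568 ± 0.0244 RPKM. Their kinase Cdk4 was at 47.7, 51.02, 53.7 and 54.4 RPKM (51.7 ± 3.06) and Cdk6 at 1.51 ± 0.163 RPKM. Of the inhibitors Cdkn1a (p21) was at 11.6 ± 1.36 RPKM and Cdkn1b (p27) at 8.53 ± 0.535 RPKM.

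In the BCL2 family 15 of 20 genes were expressed. Mcl1, which protects activated B cells, was at 79.1, 81.1, 82.97 and 88.3 RPKM (82.9 ± 3.93), overlapping Bcl2a1b (75.7 ± 3.95 RPKM), one of a family of near-identical genes whose reads may be split. Bcl2l1 (BCL-XL) was at 8.70, 10.04, 9.13 and 10.03 RPKM (9.48 ± 0.669), above every value of Bcl2 (7.28 ± 0.340 RPKM). Mcl1 was 11.4 ± 0.396 times as high as Bcl2. On the side of cell death Bax was at 55.2 ± 3.58 RPKM, Bcl2l11 (BIM) at 28.97 ± 1.62 RPKM, Bak1 at 25.4 ± 1.35 RPKM and Pmaip1 (NOXA) at 10.8 ± 0.862 RPKM. Bbc3 (PUMA) was at 4.44 ± 1.89 RPKM with a CV above 30%.

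The secretory apparatus was strongly represented. Of 47 genes of folding and stress in the endoplasmic reticulum 45 were expressed, and their median of 40.9 RPKM was above that of all expressed genes. Hspa5 (BiP), the main chaperone, was at 286, 291, 289.6 and 305 RPKM (293 ± 8.52), with a CV of 2.91%. Calr (350.1 ± 21.8 RPKM), Hsp90b1 (219.7 ± 4.79 RPKM) and Pdia4 (165 ± 8.56 RPKM) also exceeded 100 RPKM. Sensors of the unfolded protein response were lower, with Atf6 at 15.3 ± 0.236 RPKM, Eif2ak3 (PERK) at 7.28 ± 0.411 RPKM and Ern1 (IRE1) at 2.09 ± 0.158 RPKM. Atf4 was at 87.7 ± 3.38 RPKM and Ddit3 (CHOP) at 7.995 ± 0.501 RPKM.

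Of 26 glycolysis genes 23 were expressed, and Pkm2 had the highest listed level (447 ± 38.8 RPKM). The listed level of Gapdh is uncertain, as given above, so its place in this order is open. Aldoa was at 278, 269.6, 284 and 311 RPKM (286 ± 18.1), and Ldha, the lactate-forming subunit, at 261, 249.97, 264 and 310.2 RPKM (271 ± 26.6); replicate 4 was highest for both. The other lactate dehydrogenase subunit, Ldhb, was at 0.0570 ± 0.0394 RPKM. The glucose transporter Slc2a1 was at 10.9 ± 0.941 RPKM, 2.10 ± 0.174 times Slc2a3, and Hk2 and Hk1 overlapped at 10.05 ± 0.791 RPKM and 8.81 ± 1.05 RPKM. All 32 genes of cholesterol and fatty acid synthesis were expressed, with a median of 26.8 RPKM. The desaturases Scd2 (192 ± 15.3 RPKM) and Scd1 (144 ± 9.02 RPKM) led. Cytosolic tRNA synthetases were expressed in 20 of 20 cases with a median of 28.1 RPKM. For oxidative phosphorylation 86 of 93 nuclear-encoded genes were expressed, with Atp5b at the top (319.8 ± 21.4 RPKM) and a median of 33.5 RPKM. Of 39 proteasome subunits 37 were expressed, with a median of 39.7 RPKM; the thymus subunit Psmb11 (0.0862 ± 0.0142 RPKM) and the testis subunit Psma8 (0.0108 ± 0.0131 RPKM) were not. Of 353 solute carriers 148 (41.9%) were expressed and of 367 Zfp zinc finger genes 210 (57.2%), with medians of 0.171 and 1.42 RPKM. Over all 22232 genes the expressed share was 40.6% and the median 0.156 RPKM, close to those of the solute carriers. None of 1113 olfactory receptor genes was expressed, and 1072 were at 0. Actb, the actin reference gene, was at 1049, 1141, 1156 and 1126 RPKM (1118 ± 47.8).

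**Figure D3:**
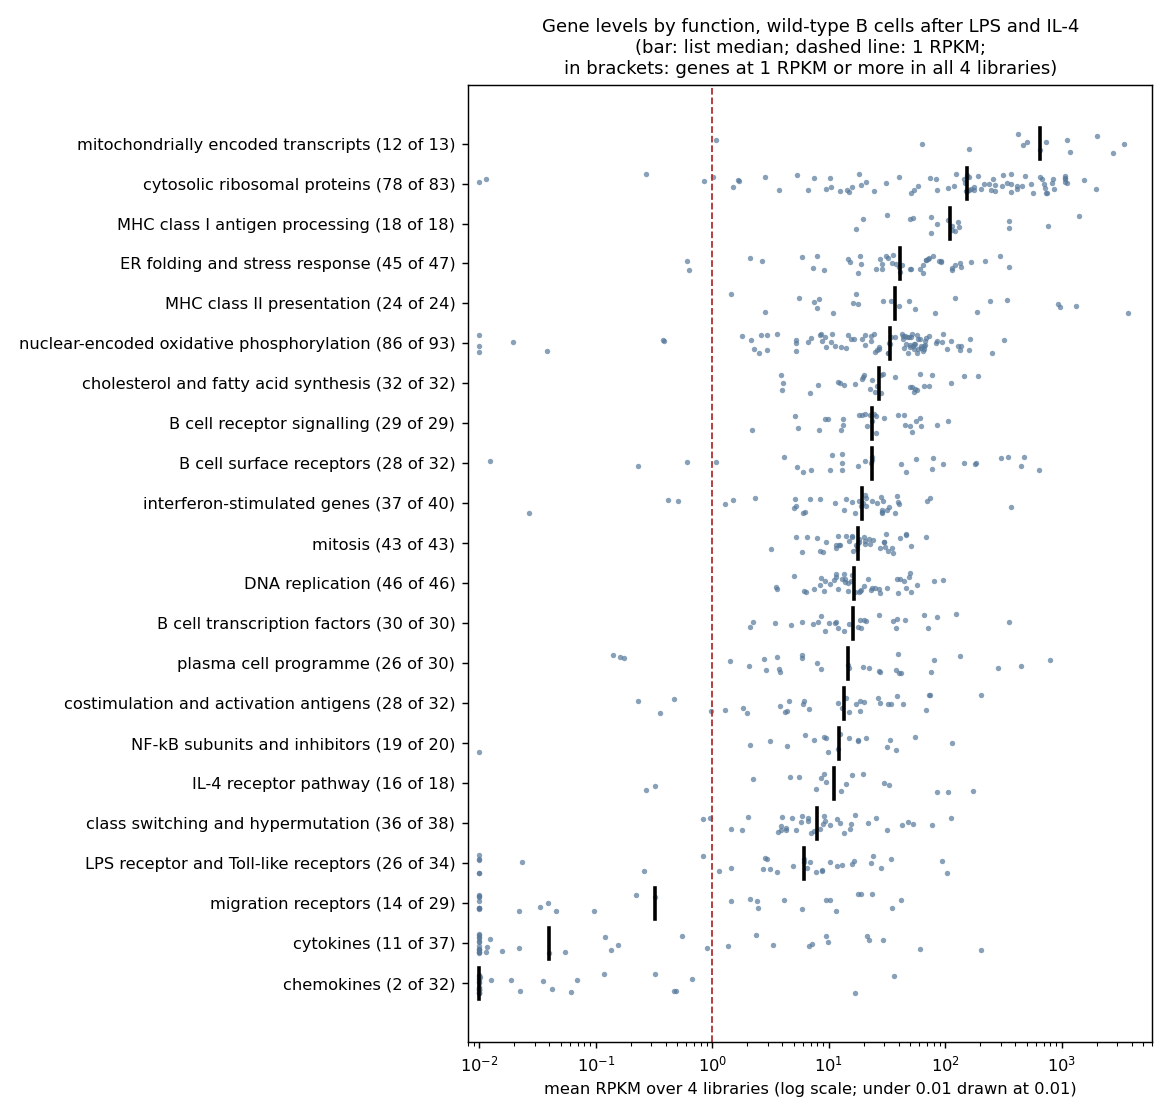
Mean RPKM over the 4 wild-type libraries (horizontal axis, log scale) of each gene of 22 functional lists, ordered by list median (black bar). Mitochondrially encoded transcripts have the highest median, 648 RPKM, and of these lists only migration receptors, cytokines and chemokines have a median under 1 RPKM.

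Spread between the cultures was small for most genes and unevenly distributed. The median CV of expressed genes was 6.63%, with quartiles of 4.77 and 9.24%, and 52 of 9029 genes had a CV above 30%. By level, the median CV was 8.80% for genes at 1 to 2 RPKM and 6.14% for those at 10 to 100 RPKM. Among genes at a mean of 5 RPKM or more, the smallest spread was that of Uchl5, a deubiquitinase of the proteasome, at 13.6, 13.6, 13.5 and 13.5 RPKM (13.5 ± 0.0646) (CV 0.477%). Fndc3a, Med4, Phf20l1, Pag1, Tnpo3, Ttc15, Ubr2, mt-Cytb and Jak2 completed the 10 smallest, all with a CV under 1%. These 10 were picked as the smallest of 5928 expressed genes at that level. With the centring by GC content described below, their CVs were 2.82% (Jak2) to 4.445% (Ubr2). Slc15a2, a peptide transporter, had the largest CV of all expressed genes, 58.8%, at 2.23, 2.26, 6.44 and 2.81 RPKM (3.43 ± 2.02); it was named after its values were seen.

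Deviations of the libraries varied with the GC content of the transcripts, taken from a GRCm38 annotation for 8957 of the expressed genes. Whole libraries also differed in level. Replicate 1 was the lowest of the 4 in 58.2% of expressed genes, and replicate 4 the highest in 50.4%. Over all expressed genes the median log2 deviation from the mean of the 4 was -0.07 in replicate 1 and 0.06 in replicate 4. Summed RPKM was 192335 in replicate 1 and 214276 in replicate 4. From the lowest to the highest decile of GC content the median log2 deviation from the mean of the 4 ran from 0.00 to -0.22 in replicate 1, from -0.06 to 0.09 in replicate 2, from 0.00 to 0.13 in replicate 3 and from 0.05 to -0.01 in replicate 4. The course was not steady in each library: replicate 4 rose to 0.08 in decile 5 before falling, and replicate 3 was still at 0.01 in decile 6. The median CV was 5.85% in the lowest decile and 11.7% in the highest. After centring each library within GC deciles, a step added after seeing the data, these became 4.89 and 6.38%, the overall median CV 4.72%, and 25 genes, all among the 52, kept a CV above 30%. Such centring also takes away differences in level between whole libraries. Scaling by median of ratios, without use of GC content, gave a median CV of 5.47% with 40 such genes. How much of each fall with centring, here or for single genes below, went with GC content was not tested. Transcript length moved with GC content, the median falling from 4231 to 2542 nt between these deciles. The source of the trend was not tested. For some of the genes above that were lowest in replicate 1 and highest in replicate 3, the CVs with centring are given here. The CV went from 12.1 to 9.48% for Irf8, from 10.3 to 6.25% for Spib, from 12.8 to 4.75% for Sfpi1, from 19.3 to 9.33% for Jak3, from 18.6 to 8.65% for Tcf3, from 30.7 to 28.9% for Pou2f2 and from 14.5 to 10.6% for Myc. These are not all genes in that order, which Pou2af1, Pax5, Xbp1 and Actb, among others, also held.

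**Figure D4:**
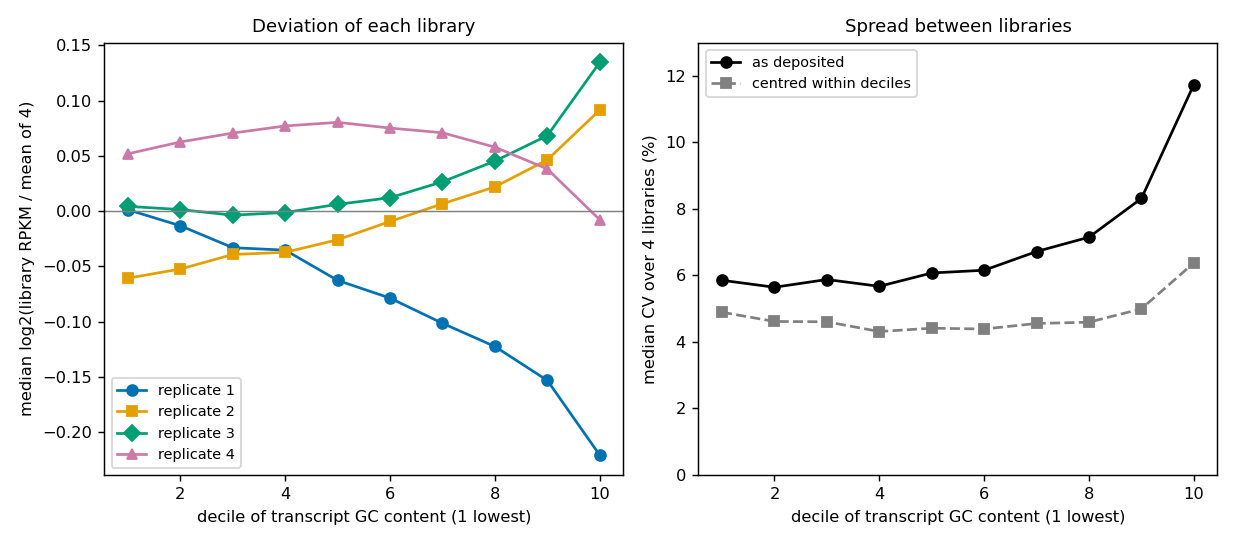
Left, median log2 ratio of each library to the mean of the 4 in deciles of transcript GC content; replicate 1 falls to -0.22 in the highest decile. Right, median CV over the 4 libraries in the same deciles, as deposited (5.85 to 11.7%) and after centring within deciles (4.89 to 6.38%).

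Several immediate early genes, which many stimuli induce within minutes, were among the genes of large spread. Of the AP-1 family, Junb was at 15.2, 34.7, 46.4 and 20.5 RPKM (29.2 ± 14.1), with a CV of 48.3%. Fos was at 27.6, 56.6, 59.5 and 32.1 RPKM (43.97 ± 16.4), and Fosb at 4.24, 9.04, 9.74 and 4.08 RPKM (6.78 ± 3.03). In all 3, replicates 2 and 3 were above replicates 1 and 4 with no overlap. Jund (16.03, 24.1, 32.2 and 15.2 RPKM, 21.9 ± 7.97), Jun (8.37, 14.5, 15.9 and 10.8 RPKM, 12.4 ± 3.44) and Ier2 (12.8, 19.995, 22.8 and 14.7 RPKM, 17.6 ± 4.61) held the same order of pairs. That order of pairs was seen in 20.8% of all expressed genes and in 44 of the 52 with a CV above 30%. After GC centring the CV was 39.9% for Junb, 36.0% for Fos, 40.8% for Fosb, 28.1% for Jund, 22.8% for Jun and 16.95% for Ier2. The spread was not common to the AP-1 family, nor limited to it. Atf3 had a CV of 6.94% with replicates 1 and 2 highest, and Fosl2 and Fosl1, both under the floor, had CVs of 14.6 and 9.59%. Outside the family Gadd45g, a growth arrest and DNA damage gene, was at 43.4, 75.04, 88.1 and 54.4 RPKM (65.2 ± 20.1), in the same order of pairs, with a CV of 30.8% that became 21.6% with centring. Klf4 (1.11 ± 0.597 RPKM, not at the floor in every library), Egr3 and Klf2 also held this order, with CVs of 53.7, 21.9 and 21.1%. So did Zfp36, Gadd45b, Dusp1, Egr2 and Nr4a1 (under the floor), with CVs of 15.7, 14.8, 13.7, 9.49 and 14.4%. Others varied little. Egr1, also in this order, was at 40.95, 45.6, 44.3 and 41.02 RPKM (42.97 ± 2.35) with a CV of 5.47%. Btg2, Dusp2 and Ier5 had CVs of 6.36, 5.25 and 6.67% and, like the rest of the list, did not hold the order. This list of 25 immediate early genes was drawn up after the spread was seen. What moved with the pairs of cultures was not tested.

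The remaining genes of large spread were of mixed kinds. At a mean of 5 RPKM or more, the 15 largest CVs also included Gm10800 (53.6%), a predicted gene, at 6.76, 8.25, 3.34 and 2.38 RPKM (5.18 ± 2.78), the only one of the 15 with replicate 2 highest besides Rpl36 (40.4%). Crlf2, the receptor chain for the cytokine TSLP, was at 3.12, 6.73, 8.35 and 3.45 RPKM (5.41 ± 2.55) (47.0%), and Il3ra, the IL-3 receptor alpha chain, at 3.61, 7.17, 7.47 and 5.02 RPKM (5.82 ± 1.83) (31.5%). The mitochondrial genes Romo1 (36.5%) and Mrps12 (33.6%), and Pigyl (32.1%), Tmem160 (31.2%), 2810428I15Rik (33.6%), Gm8730 (34.0%) and the pseudogene Rplp2-ps1 (37.6%) made up the rest with the AP-1 genes Junb, Fosb, Fos and Jund. Replicate 3 was highest in 12 of the 15 and replicate 1 lowest in 11. Rpl36 and Rplp1 had CVs above 30% while the median of the expressed ribosomal protein genes was 7.73%, and both belong to families with many copies.

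**Figure D5:**
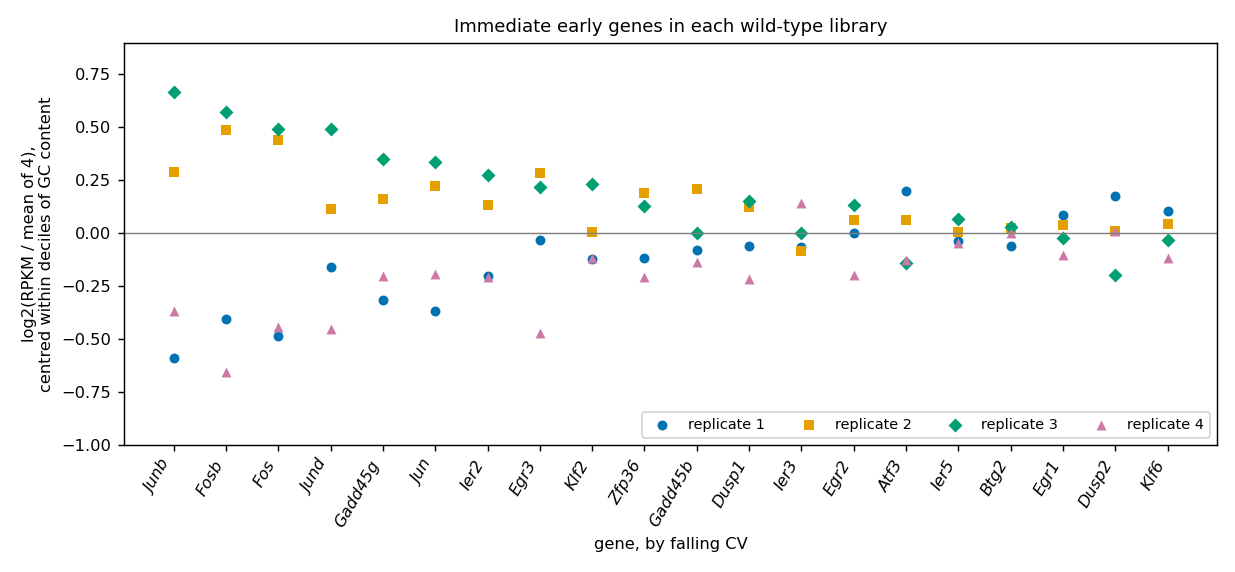
Log2 ratio of each library to the mean of the 4, centred within deciles of GC content (vertical axis), for the 20 expressed immediate early genes, ordered by falling CV. Replicates 2 and 3 lie above 0 and replicates 1 and 4 below 0 for Junb, Fosb, Fos and Jund, whereas the points of Btg2 and Ier5 lie close to 0.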

How the data were processed

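The values are RPKM per gene as the authors deposited them in a table of 22295 rows, of which 63 repeated a gene; the row with the highest mean was kept, leaving 22232 genes. Per the labels' protocols, RNA was extracted with TriZol and libraries were made with the Illumina TruSeq mRNA kit, which selects polyadenylated RNA. Per the submitters' processing notes, Trim Galore, TopHat and the mouse build NCBIM37 were used. The sources used here name no counting tool, annotation, use of strand or treatment of reads that map to several places. Coordinates of sequences are on GRCm38.p6 and were not mixed with those of the table.

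Only the 4 wild-type columns were read, and each matched its sample by name. Depth was estimated from steps in the RPKM of genes with a span of at most 2500 bp. With the estimated depth 75.6 to 79.6% of low values were whole reads within 0.01 reads; intervals that follow from it cover counting error only. Means, SDs, CVs, ranks and counts were computed with Python 3.11.15, numpy 2.4.6 and pandas 2.3.3. No test between groups was run; a library far from the other 3 was sought with Dixon's criterion. Neighbours in an order were called apart when all 4 values of one gene exceeded all 4 of the other. The spread script was tested on simulated data. The 48 genes of a panel, the 36 functional lists and the 10 marker lists were chosen with earlier results of these data known; the lists of immediate early genes and mitochondrial tRNA synthetases were added after their values were seen. Genes were named by a fixed rule: the panel with all 4 values, the leading members, members at 0 and pathway steps of each list, the 25 highest genes, and the 15 largest and 10 smallest CVs at a mean of 5 RPKM or more. Some genes that the rule would name are not reported here. Alternatives were other scalings, floors and pseudocounts, other summaries, leaving out each library, and centring by GC content.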

Additional observations from a re-analysis of the deposited data

Results flagged for a closer look

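In each of 355 values (the named genes, list medians, library totals and class shares) it was asked whether a single library lay far from the other 3, by the gap to the nearest value over the range, with Dixon's 95% critical value for 4 samples. In 22 of them it did, and chance gives about 1 in 20, or 17.8. Of the 22, 4 values were at 0 in the other 3 libraries, which sets such a value apart by construction, and 3 belong to genes named for their spread (Slc15a2, Ttc15 and Fndc3a), for which the criterion tells nothing. Of the remaining 310 values 15 were apart, against 15.5 by chance, so the values below are a description and no library is shown to differ by them. Replicate 1 was the library apart in 10, replicate 4 in 5, replicate 3 in 4 and replicate 2 in 3.

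Replicate 1 was low for Cd74 at 3336 RPKM (others 3774 to 3832), H2-DMa at 210.1 RPKM (247 to 252), Gnb2l1 at 956 RPKM (1151 to 1156) and Rps15 at 894 RPKM (1114 to 1153). It was also low for Blnk at 55.6 RPKM (61.7 to 62.8), Slc2a6 at 51.6 RPKM (64.4 to 66.8), Mcm2 at 28.4 RPKM (32.0 to 32.5) and Relb at 8.01 RPKM (9.70 to 10.0). The median of the IRF list was 14.8 RPKM in replicate 1 and 16.1 to 16.2 RPKM in the others. These lie beside the lower summed RPKM of replicate 1 and its fall with GC content, whose parts in them were not tested.

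Replicate 4 was high for Pkm2 at 504 RPKM (419 to 433), Scd1 at 158 RPKM (139 to 141), Cd44 at 76.5 RPKM (66.2 to 66.7), Cd80 at 5.29 RPKM (4.19 to 4.36) and Tlr4 at 0.908 RPKM (0.786 to 0.806). Replicate 3 was high for Slc15a2 at 6.44 RPKM (2.23 to 2.81), and for Ttc15 at 7.13 RPKM (7.01 to 7.02) and replicate 2 for Fndc3a at 11.7 RPKM (11.6 in each of the others) by very small steps. Replicate 2 was high for Ctsl at 1.55 RPKM (1.42 to 1.43). Near 0, Cd3e was listed at 0.0158 RPKM in replicate 1, Clec9a at 0.00849 and Gata3 at 0.00824 RPKM in replicate 3, and the chemokine median at 0.00582 RPKM in replicate 2, with 0 in the other 3 libraries each time.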

How the results depend on the processing

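The described values were recomputed with the libraries scaled by median of ratios or to the same sum of RPKM, with other expression floors and with each library left out. The number of expressed genes was 9060 without replicate 2, between 9049 and 9098 over the 4 omissions, and 5650 with a floor of 5 RPKM. Leaving out each library gave a median CV of 5.26 to 7.10%, and 28 to 82 genes with a CV above 30% in place of 52: 28 without replicate 1 and 82 without replicate 2. With median-of-ratios scaling the median CV was 5.47% with 40 such genes, and with the same sum of RPKM 5.78% with 36, against 6.63% and 52 as deposited. The share of the 100 highest genes was 34.0 to 34.2% over the 4 omissions and 30.8% without mitochondrially encoded and immunoglobulin genes. The count of genes with a CV above 30% was 90 with a floor of 0.5 RPKM, 13 with a floor of 5 RPKM and 1609 with any value above 0 in every library, where the median CV was 8.25%. Centring within GC deciles, added after seeing the data, gave 4.72% and 25 genes. The cause of these changes was not tested. Both scalings moved each of 36 list medians by less than the SD between libraries, as did GC centring, while a floor of 5 RPKM moved 29 of 35 (the olfactory receptors had none left). No paired analysis was possible because a single group was described. Depth limits the levels near 0, where single reads decide a value.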

Other observations

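Among 353 solute carriers the mitochondrial ADP/ATP carrier Slc25a5 was highest at 214 ± 10.5 RPKM, followed by the phosphate carrier Slc25a3 at 111 ± 5.76 RPKM. The glucose transporter family member Slc2a6 (62.4 ± 7.29 RPKM) and the glutamine transporter Slc1a5 (56.6 ± 3.86 RPKM) were also above 50 RPKM in mean, and their values overlapped. Slc2a6 was above Slc2a1 (10.9 ± 0.941 RPKM) and Slc2a3 (5.21 ± 0.631 RPKM) in all 4 libraries. Of the genes named Zfp, the highest were Zfp36 (tristetraprolin) at 73.5 ± 11.5 RPKM and Zfp36l1 at 69.04 ± 9.28 RPKM, both known to bind AU-rich elements of messenger RNA, and their values overlapped. Zfp207, Zfp280b and Zfp106 followed at 41.4 ± 2.03 RPKM, 33.8 ± 1.48 RPKM and 25.9 ± 1.30 RPKM.

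Of 76 mitochondrial ribosomal proteins 75 were expressed, with means from 0.875 RPKM up to 39.6 ± 2.52 RPKM for Mrps16 and a list median of 12.95 RPKM, against 155 RPKM for the cytosolic ribosomal proteins. Of 66 translation factors 62 were expressed; behind Eef1a1 and Eef2 stood Eef1g (452 ± 30.5 RPKM), Eef1b2 (332 ± 22.8 RPKM) and Eif5a (228 ± 11.5 RPKM). Eef1a2, the form of muscle and nerve, and Eif4e1b were at 0. Of the surrogate light chain genes of early B cells, Vpreb1 was at 0.0512 ± 0.0477 RPKM and Igll1 at 0. The related gene Vpreb3 was at 56.02 ± 4.17 RPKM.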
